A study of Mus musculus with 4 samples.

Results

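The nuclear genes for oxidative phosphorylation were followed in brain RNA from normotensive and hypertensive mice with sham surgery or photothrombotic stroke. Members were the protein-coding genes whose names begin as complex I subunits (Ndufa, Ndufb, Ndufc, Ndufs or Ndufv with a number), as the Sdh genes of complex II, as Uqcr genes of complex III, as Cox4 to Cox8 genes of complex IV, or as Atp5 genes of complex V. This rule chose 83 of 33981 genes by name and used no measured value. They were 37 for complex I, 4 for complex II, 8 for complex III, 17 for complex IV and 17 for complex V. In every pairwise comparison 81 of the 83 passed the filter on low counts, and the other 2, Cox7b2 and Cox8b, were close to absent.

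Brain tissue for RNA came from male C57BL/6J mice aged 3 to 5 months and was a single coronal slab in which the prefrontal cortex lay. Vehicle was infused in the normotensive (NT) groups, NT + Sham and NT + Stroke, and angiotensin II in the hypertensive (HT) groups, HT + Sham and HT + Stroke, at a dose of 0.28 mg/kg each day over 28 days. Sham surgery, or a light-induced clot in the prefrontal cortex, followed on day 7 of the infusion. Each group had 6 numbered libraries, which were treated as 6 mice, although no label says that they came from separate animals, so the P values measure the spread between libraries. Libraries held 15922919 to 24865998 counts (median 18497216). Region markers varied widely between libraries: summed olfactory bulb markers ran from 73.4 to 856 CPM (read counts scaled to library size) and summed striatal markers from 485 to 3243 CPM over the 24 libraries. In NT + Stroke, summed neuronal markers were 7143 to 8236 CPM against 9174 to 10098 CPM in NT + Sham, and summed microglial and macrophage markers were 435 to 759 CPM against 272 to 303 CPM. Of the 11 neuronal markers, 5 were lower and 1 higher at an edgeR adjusted P under 0.05. Summed cortical markers were 1950 to 2722 CPM in NT + Stroke against 2842 to 3602 CPM in NT + Sham, with 7 of 7 lower at that threshold. Library 6 of HT + Stroke stood apart for skeletal muscle genes, with 254 CPM over 9 markers against 14.4 to 24.8 CPM in the other 23 libraries.

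Oxidative phosphorylation is the last stage of energy production from fuel. Complex I (NADH dehydrogenase) and complex II (succinate dehydrogenase) pass electrons to complex III, cytochrome c carries them to complex IV (cytochrome c oxidase), and complex V (ATP synthase) uses the resulting proton gradient to make ATP. Most subunits are encoded in the nucleus and a smaller set in the mitochondrial genome, with complex II entirely nuclear. Neurons rely heavily on this pathway. Some complex IV subunits exist as alternative forms that are used in particular tissues, such as heart and skeletal muscle or testis.

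Promoter sequences are shown for the member with the clearest stroke-associated difference, for its abundant partner, for the member that varied most between libraries, and for an abundant member with the letters of the motif for NRF1, a factor known for driving respiratory chain genes. Each is the 250 bases before the RefSeq start on GRCm38.p6, 5′ to 3′ on the strand of the gene. They lie at chr7:4753095-4753344 (minus strand) for Cox6b2, chr7:30626115-30626364 (minus) for Cox6b1, chr10:94198785-94199034 (plus) for Ndufa12 and chr5:115348959-115349208 (minus) for Cox6a1. By the gene positions listed with the counts, the Ndufa12 stretch lies inside the gene, which is listed from 94198720. The Cox6b1 and Cox6a1 stretches overlap their genes, listed up to 30626151 and 115348981, and the Cox6b2 stretch does not overlap its gene. Capitals mark matches to the motifs named in the next paragraph, on either strand.
Cox6b2: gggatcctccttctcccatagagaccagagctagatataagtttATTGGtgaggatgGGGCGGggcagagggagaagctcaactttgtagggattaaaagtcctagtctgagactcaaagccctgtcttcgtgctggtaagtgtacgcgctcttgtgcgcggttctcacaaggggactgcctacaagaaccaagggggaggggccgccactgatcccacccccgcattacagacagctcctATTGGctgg
Cox6b1: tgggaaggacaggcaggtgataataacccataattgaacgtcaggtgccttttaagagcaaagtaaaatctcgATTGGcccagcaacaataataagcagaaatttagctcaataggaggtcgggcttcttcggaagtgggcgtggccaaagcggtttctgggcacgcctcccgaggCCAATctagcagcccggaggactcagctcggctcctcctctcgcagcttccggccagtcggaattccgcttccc
Ndufa12: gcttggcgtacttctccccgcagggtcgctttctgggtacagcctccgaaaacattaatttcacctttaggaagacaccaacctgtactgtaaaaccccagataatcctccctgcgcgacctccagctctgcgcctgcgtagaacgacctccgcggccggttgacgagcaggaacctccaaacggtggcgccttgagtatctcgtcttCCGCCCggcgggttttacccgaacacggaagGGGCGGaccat
Cox6a1: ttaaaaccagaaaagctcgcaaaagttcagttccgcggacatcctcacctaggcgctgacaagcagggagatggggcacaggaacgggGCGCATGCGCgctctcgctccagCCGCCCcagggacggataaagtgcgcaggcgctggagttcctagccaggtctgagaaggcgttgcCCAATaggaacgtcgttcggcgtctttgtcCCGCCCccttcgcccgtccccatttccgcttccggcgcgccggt

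The motifs searched on both strands were GCGCATGC (NRF1), CCGGAAGT (ETS factors), AAGATGGCG (YY1), GGGCGG (SP1), CCAAT and TATAAA. Windows covered 250 bases before to 50 after the start, and 68 of the 83 members were matched to a promoter entry. The NRF1 letters were in 10 of 68 members (14.7%) and in 824 of 27025 genes with a promoter (3.05%), or 3.93% of protein-coding genes. The YY1 letters were in 7 members (10.3%) and in 1.64% of all genes, or 2.14% of protein-coding genes. The ETS letters were in 5 members (7.35%) against 4.31% of all genes, the SP1 letters in 28 (41.2%) against 38.2%, CCAAT in 30 (44.1%) against 41.1%, and TATAAA in 7 (10.3%) against 15.7%. The share of protein-coding genes was 5.69% for ETS, 49.2% for SP1, 42.3% for CCAAT and 14.8% for TATAAA. Members with the NRF1 letters were Ndufa6, Ndufa8, Ndufa11, Sdhb, Uqcr11, Uqcrc1, Cox6a1, Atp5g2, Atp5k and Atp5l, so each complex had at least 1. In the printed sequences Cox6a1 alone held the NRF1 letters. Cox6a1, Cox6b2 and Ndufa12 held SP1 letters, and Cox6a1, Cox6b1 and Cox6b2 held CCAAT. A match of letters is a description and was not read as binding.

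Levels between genes were compared as FPKM, which divides by gene length. The members spanned a wide range, from 1299 ± 193 FPKM for Cox8a to 0.702 ± 0.329 FPKM for Cox7b2 (mean ± SD, n = 24 libraries). The 4 highest members all belonged to complex IV: Cox8a, Cox6a1 (925 ± 157 FPKM), Cox4i1 (579 ± 88.8) and Cox6b1 (369 ± 55.8), which are structural subunits encoded in the nucleus. Cox8a ran from 987 to 1757 FPKM and Cox6a1 from 671 to 1316, so these neighbours overlapped. The next were the beta and alpha subunits of the catalytic head of ATP synthase, Atp5b (322 ± 9.64 FPKM) and Atp5a1 (275 ± 8.93). The lowest members of complex IV were also the lowest of all, so complex IV held both ends of the range.

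**Figure D1:**
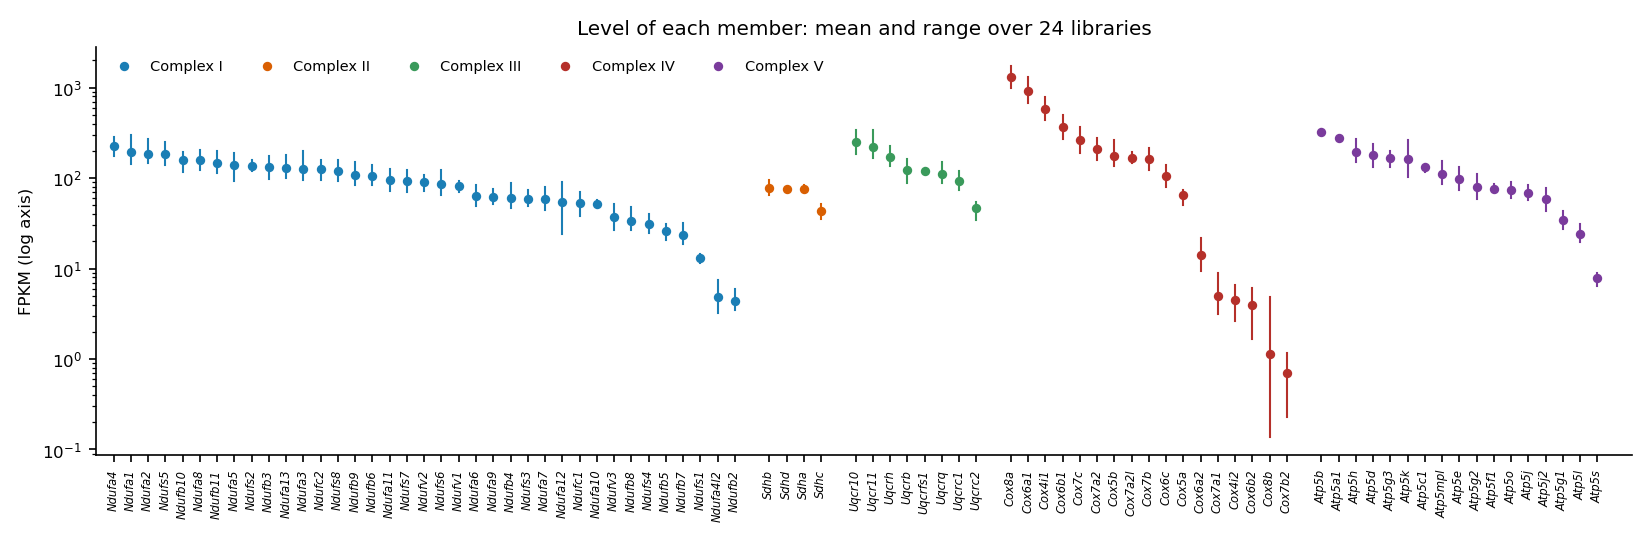
Mean FPKM (points, log axis) and the range over 24 libraries (vertical lines) of each of the 83 members, grouped by complex and ordered by mean. Complex IV spans from 1299 FPKM for Cox8a to 0.702 FPKM for Cox7b2, while the 4 members of complex II lie between 42.8 and 78.1 FPKM.

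In complex I the highest mean levels were those of Ndufa4 (229 ± 28.0 FPKM), a subunit first assigned to complex I and now often placed with complex IV, and Ndufa1 (193 ± 33.1 FPKM). The lowest was Ndufb2 (4.42 ± 0.558 FPKM), for which the tables list a length of 5628 bases and whose locus overlaps Braf and Gm42420, so its reads could be shared. The members of complex II sat close together, with Sdhb at 78.1 ± 7.18, Sdhd at 76.5 ± 1.82, Sdha at 76.5 ± 4.34 and Sdhc at 42.8 ± 3.52 FPKM. Sdha and Sdhb carry the catalytic flavin and the iron-sulfur clusters, and Sdhc and Sdhd anchor the complex in the membrane. The first 3 of these did not differ beyond their spread. In complex III, Uqcr10 (253 ± 38.6 FPKM) and Uqcr11 (223 ± 43.9 FPKM), small accessory subunits, were highest, and Uqcrc2, a core protein, was lowest (47.2 ± 4.37 FPKM). In complex V, Atp5s was lowest (7.87 ± 0.717 FPKM).

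The c-ring of ATP synthase is made of a single protein encoded by 3 genes with different import sequences. Of their summed FPKM, Atp5g3 gave 59.4% ± 1.25 (SD), Atp5g2 28.3% ± 1.37 and Atp5g1 12.2% ± 0.640 (n = 24). The highest Atp5g1 share, 13.5%, lay under the lowest Atp5g2 share, 26.1%, so the order by FPKM was the same in every library. By CPM, which does not divide by length, Atp5g1 was above Atp5g2 in every library, as in library 1 of NT + Sham (171 against 138 CPM). The listed lengths are 4912 bases for Atp5g1 and 1675 bases for Atp5g2. Alternative forms of complex IV subunits were minor in this tissue. Cox4i2 made up 0.767% ± 0.122 of the Cox4i pair, Cox6a2 1.51% ± 0.219 of the Cox6a pair, Cox6b2 1.09% ± 0.378 of the Cox6b pair and Cox7a1 2.31% ± 0.547 of Cox7a1 and Cox7a2 together. Cox7b2 made up 0.439% ± 0.215 of the Cox7b pair and Cox8b 0.0898% ± 0.102 of the Cox8 pair. Ndufa4l2, known to respond to low oxygen, made up 2.10% ± 0.397 of Ndufa4l2 and Ndufa4.

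The members together took 1.27% to 1.91% of all scaled counts (median 1.61%). Within groups, complexes I, III, IV and V varied more than complex II in proportion to their means. Summed complex I members were 3831, 4764 and 5588 CPM (lowest, median and highest) in NT + Sham, 3863, 4463 and 4652 in NT + Stroke, 3938, 4576 and 5278 in HT + Sham, and 3518, 4916 and 5625 in HT + Stroke. Summed complex II members were 698, 729 and 768 CPM in NT + Sham, 681, 695 and 701 in NT + Stroke, 689, 712 and 774 in HT + Sham, and 658, 706 and 733 in HT + Stroke. Groups overlapped for both complexes. Within HT + Stroke the highest library held 1.60 times the lowest for complex I, 1.11 for complex II, 1.51 for complex III, 1.74 for complex IV and 1.29 for complex V.

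Summed complex III members were 1239, 1489 and 1685 CPM in NT + Sham and 1255, 1390 and 1471 in NT + Stroke. They were 1275, 1430 and 1686 CPM in HT + Sham and 1145, 1543 and 1724 in HT + Stroke. For complex IV the values were 3331, 4312 and 5278 CPM in NT + Sham, 3159, 3861 and 4237 in NT + Stroke, 3466, 4091 and 4981 in HT + Sham, and 3031, 4469 and 5278 in HT + Stroke. For complex V they were 4610, 5307 and 5757 CPM in NT + Sham, 4648, 4969 and 5183 in NT + Stroke, 4765, 5134 and 5716 in HT + Sham, and 4312, 5287 and 5561 in HT + Stroke. NT + Stroke had the lowest median of the 4 groups in every complex, and its range overlapped that of each other group.

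**Figure D2:**
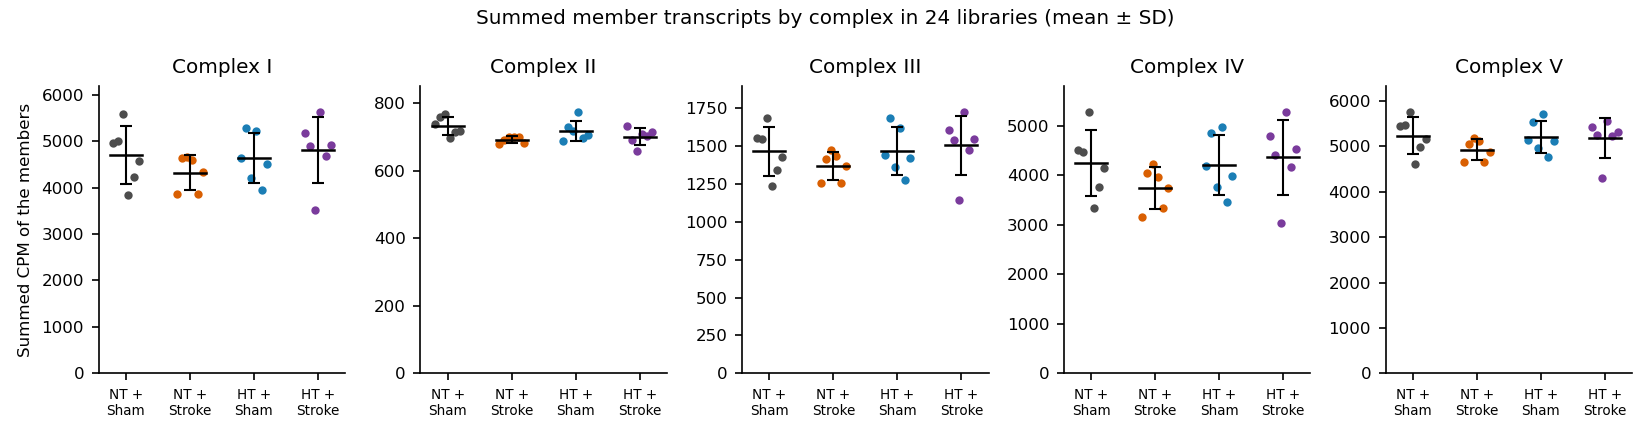
Summed CPM of the members of each complex (vertical axes from 0) in the 6 libraries of each group (points), with mean and SD (bars). The groups overlap in all 5 complexes, and 1 HT + Stroke library, at 3518 CPM for complex I, is the lowest of all 24 in each complex.

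The same few libraries were at the ends for most members. Library 3 of HT + Stroke had the lowest value of all 24 libraries for 56 of 81 members, among them 27 of complex I, 6 of complex III, 9 of complex IV and 12 of complex V. Library 3 of NT + Sham and library 4 of HT + Stroke had the highest value for 30 members each. Library 4 of HT + Stroke was at the same time the lowest of all for Sdha, Atp5a1 and Uqcrc2. Summed cytosolic ribosomal protein genes (83 genes) had their highest value, 28503 CPM, in that same library, and their lowest, 16573 CPM, in library 4 of NT + Sham, which was also the lowest NT + Sham library for each complex. The part of RNA quality, depth or tissue in this shared spread was not tested.

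How much a member varied between libraries of a group differed with its length. Over the 75 members with a mean of at least 16 CPM, the median within-group SD of log2(CPM + 0.5) was 0.21, against 0.14 over 8717 genes at such levels. These were not matched for length: the median length was 4721 bases over the 8717 genes, and 944 to 2744.5 bases over the members of each complex. The median SD was 0.23 for the 25 shortest members (419 to 1214 bases) and 0.15 for the 25 longest (2178 to 8086 bases). Across the 75 members Spearman's rho between length and SD was -0.593, and across the 8717 genes it was -0.175; genes share the same libraries and are not independent. Atp5b (SD 0.05), Atp5a1 (0.05), Sdhd (0.06), Sdha (0.08) and Uqcrfs1 (0.08), the Rieske iron-sulfur protein of complex III, varied least. Sdhd and Uqcrfs1, at 1231 and 1363 bases, lie between those length classes, so length did not order every member. Ndufa12 varied most (SD 0.49), followed by Atp5k (0.34) and Uqcr11 (0.29).

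**Figure D3:**
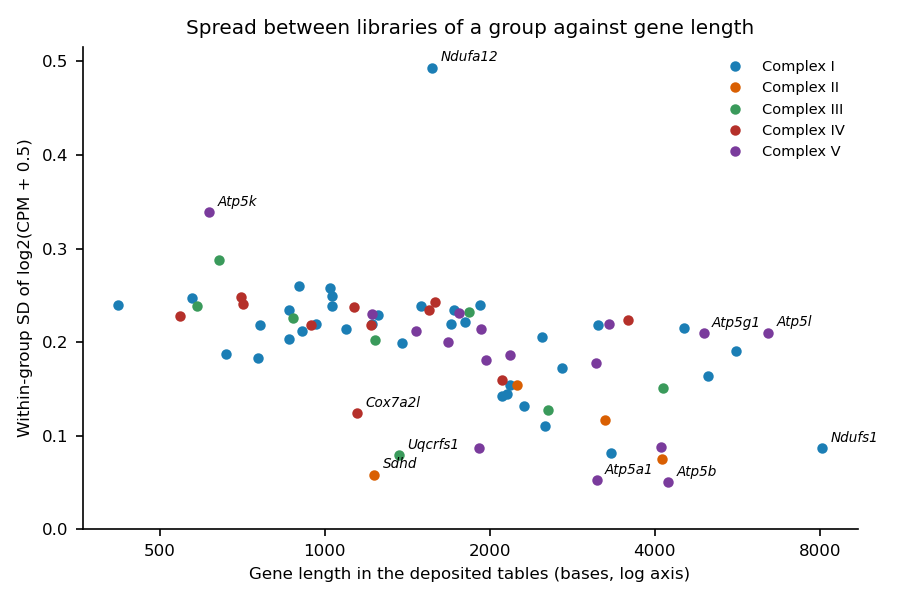
Within-group SD of log2(CPM + 0.5) (vertical axis) against the gene length listed in the tables (bases, log axis) for the 75 members with a mean of at least 16 CPM, coloured by complex. Shorter members vary more (rho -0.593 across genes), Ndufa12 lies highest at 0.49 and Atp5b lowest at 0.05.

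NT + Stroke vs NT + Sham asked whether stroke alone was accompanied by a difference in these genes. Of 81 members, 2 rose and 1 fell, in a comparison where 25.9% of 16835 genes were called (14.4% higher and 11.5% lower) by edgeR's quasi-likelihood test with Benjamini-Hochberg adjustment. The rising members were Cox6b2 and Ndufa12, and the falling member was Atp5s. The median log2 fold change of the members was -0.11, with 10 of 81 above 0, beside a median of -0.01 over all genes tested. By complex the median was -0.11 for I, -0.05 for II, -0.11 for III, -0.15 for IV and -0.09 for V. In bulk tissue, fewer cells of a type and less RNA per cell cannot be told apart. The median was 0.04 once olfactory bulb and striatal marker scores were in the fit, and Cox6b2 was then the single member called, while that fit called 847 of 16835 genes (5.03%). Without library 4 of NT + Sham 11 of 81 members were called, with Cox6b2 higher and 10 lower, beside 4205 of 17049 genes. Those lower included Ndufa9, Ndufb9, Cox7a2 and Atp5f1. With library size scaling the calls were 3 higher and 0 lower, beside 4008 of 16835 genes. With upper-quartile scaling they were 2 higher and 0 lower, beside 4216 of 16835 genes. With limma on log2(FPKM + 1) they were 4 higher and 0 lower, beside 3927 of 16835 genes. On log2(FPKM + 0.1) they were also 4 higher and 0 lower, beside 3908 of 16835 genes. DESeq2 called 2 higher and 4 lower of 83 members, beside 4883 of 32723 genes, the lower ones being Atp5f1, Sdha, Cox7a2 and Atp5s.

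Cox6b2 (ENSMUSG00000051811, chr7:4751792-4753094 on GRCm38, minus strand) encodes the testis form of complex IV subunit VIb. It was measured at 1.84, 3.04 and 3.57 CPM (lowest, median and highest) in NT + Sham and at 4.70, 5.52 and 6.63 CPM in NT + Stroke, from 35 to 167 counts a library. Every NT + Stroke library was above every NT + Sham library. The log2 fold change was 0.99 ± 0.15 (SE, n = 6 per group, edgeR adjusted P = 9.76e-05), and it was 0.91 to 1.07 with any single library left out. With the region scores in the fit it was 0.97 ± 0.28 and close to the threshold (edgeR adjusted P = 0.0482). Its partner Cox6b1, the form used in most tissues, had 206, 268 and 339 CPM in NT + Sham and 203, 242 and 264 CPM in NT + Stroke. It differed by -0.15 ± 0.10 on the log2 scale (edgeR adjusted P = 0.276). As a share of the FPKM of both genes, Cox6b2 was 0.567% to 0.795% in NT + Sham and 1.12% to 1.74% in NT + Stroke. It remained a minor form in both groups.

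Ndufa12 (ENSMUSG00000020022, chr10:94198720-94221443, plus strand) encodes an accessory subunit of the peripheral arm of complex I. It was at 44.1, 58.0 and 69.3 CPM in NT + Sham and at 45.3, 90.2 and 115 CPM in NT + Stroke. Library 5 of NT + Stroke lay within the NT + Sham range and the other 5 lay above it. The log2 fold change was 0.64 ± 0.19 (edgeR adjusted P = 0.0253). The call was lost in 2 of 12 fits that left out a library, with an edgeR adjusted P of 0.0548 without library 4 and 0.0513 without library 5 of NT + Sham. It was also lost under 3 of the 9 other settings: with all genes that had a count (edgeR adjusted P = 0.0781), with all 4 groups in a single fit (0.0929), and with the region scores, where the log2 fold change was 1.01 ± 0.34 (0.179). The wide spread of this gene within groups limits the precision.

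Atp5s (ENSMUSG00000054894, chr12:69724950-69744660, plus strand) is named as coupling factor B of ATP synthase, and RefSeq lists it under the symbol Dmac2l. It was at 17.2, 17.7 and 18.1 CPM in NT + Sham and at 12.7, 15.3 and 17.0 CPM in NT + Stroke. The groups did not overlap, as for 14.3% of the genes tested, and Cox6b2 was the other of 2 members with that pattern. Its log2 fold change was -0.21 ± 0.08 (edgeR adjusted P = 0.0444). The call rests close to the threshold: it was lost in 11 of 12 fits that left out a library, with an edgeR adjusted P of up to 0.105, and under 7 of the 9 other settings. With the region scores in the fit it was -0.34 ± 0.14 (edgeR adjusted P = 0.213).

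The intervals bounded most members closely. For 77 of the 81 members the 95% interval of the difference, with 10 residual degrees of freedom, lay inside a 1.5-fold change either way. The other 4 were Cox6b2, Ndufa12, Ndufa4l2 and Cox7a1. Ndufa4l2 was at 3.47, 4.90 and 5.19 CPM in NT + Sham and 4.29, 5.86 and 6.80 CPM in NT + Stroke (0.34 ± 0.14 on the log2 scale, edgeR adjusted P = 0.0807). Cox7a1, the heart and muscle form of subunit VIIa, was at 1.87, 2.33 and 2.79 CPM in NT + Sham and 1.99, 3.08 and 3.65 CPM in NT + Stroke (0.36 ± 0.17, edgeR adjusted P = 0.134). Both sets of groups overlapped. Summed pericyte and mural cell markers, 9 genes, were 263 to 289 CPM in NT + Sham and 333 to 380 CPM in NT + Stroke, with 4 of 9 called higher, and their part in these values was not tested.

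Medians of core and accessory subunits were close in this comparison. The 7 nuclear core subunits of complex I, which carry its flavin and iron-sulfur clusters, had log2 fold changes of -0.12 to -0.04 with none above 0 and none called, and the other 30 had a median of -0.10. Within ATP synthase the medians were -0.05 for the 5 F1 genes, -0.08 for the 3 c-ring genes, -0.14 for the 4 peripheral stalk genes and -0.08 for the 4 other membrane subunits, with 0 called in each. At an unadjusted P under 0.05, 4 members were higher and 12 lower (16 of 81), beside 36% of all genes tested. The lower ones included Cox7a2 (-0.24 ± 0.09, edgeR adjusted P = 0.0531), which missed the threshold by edgeR and passed it by DESeq2 (DESeq2 adjusted P = 0.0498).

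**Figure D4:**
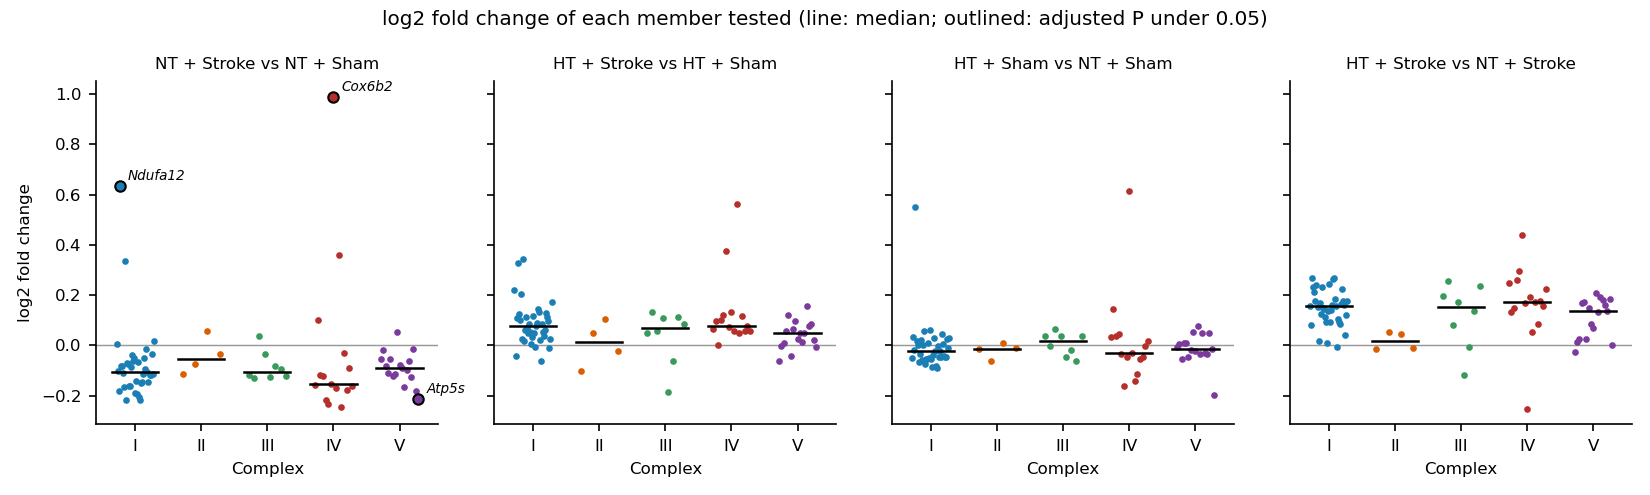
Log2 fold change (vertical axis) of each of the 81 members tested, by complex, in 4 comparisons; lines mark medians and outlined points passed an edgeR adjusted P under 0.05. Outlined points occur in NT + Stroke vs NT + Sham alone (Cox6b2, Ndufa12 and Atp5s), with other members of that panel mostly just below 0.

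HT + Stroke vs HT + Sham asked the same of hypertensive mice. edgeR called 0 of 81 members, as did DESeq2 and limma on log2(FPKM + 1), in a comparison where 0.645% of genes were called. At an unadjusted P under 0.05, 4 members passed (3 higher and 1 lower), beside 17% of all genes. The median was 0.07 with 69 of 81 above 0, beside 0.00 over all genes. It was -0.01 without library 4 and 0.15 without library 3 of HT + Stroke, and 0.15 with the region scores in the fit. Of the oligodendrocyte markers 5 of 7 were called higher (median 0.51), the 9 striatal markers were all above 0 (median 1.30) with 0 called, and 79 of 81 cytosolic ribosomal protein genes were above 0 (median 0.18) with 0 called. Their part in the members' median was not tested. The members with the smallest P were Cox7a1, Ndufa4l2 and Cox6a2. Cox7a1 was at 1.66, 2.16 and 2.58 CPM in HT + Sham and 2.18, 2.88 and 4.46 CPM in HT + Stroke (0.56 ± 0.20, edgeR adjusted P = 0.162). Ndufa4l2 was at 4.23, 4.73 and 5.10 CPM in HT + Sham and 4.41, 5.67 and 7.67 CPM in HT + Stroke (0.35 ± 0.14, edgeR adjusted P = 0.236). The ranges of both genes overlapped.

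Cox6a2, the heart and muscle form of subunit VIa, also known from fast-spiking interneurons, was at 6.27, 8.70 and 12.003 CPM in HT + Sham and 8.28, 11.1 and 14.8 CPM in HT + Stroke (0.38 ± 0.17, edgeR adjusted P = 0.274). Its highest value, 14.8 CPM, was in library 6 of HT + Stroke, where all 9 skeletal muscle markers had their highest value of the 24 libraries (Acta1 81.7 CPM, Ckm 23.3 CPM, Myh4 37.2 CPM). Without this library the log2 fold change was 0.27 ± 0.17 (edgeR adjusted P = 0.427). The other 5 libraries of the group held 8.28 to 11.7 CPM. Cox7a1 was 3.56 CPM in library 6, inside the 2.18 to 4.46 CPM of the other 5, and its log2 fold change without it was 0.51 ± 0.21 (edgeR adjusted P = 0.222). Summed parvalbumin interneuron markers other than Cox6a2 (5 genes) were 323 to 393 CPM in HT + Sham and 376 to 527 CPM in HT + Stroke. With Cox6a2 included, 4 of the 6 markers were above 0 and 2 below 0 (log2 fold changes -0.20 to 0.96), with 1 called higher. The part of these markers in the Cox6a2 values was not tested. Cox6a2 overlaps Itgad on the opposite strand.

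Cox8b and Cox7b2, forms used in muscle and testis, did not pass the filter on low counts used in the pairwise comparisons. Cox8b had 1 to 11 counts a library outside HT + Stroke and 3 to 33 counts in it. Its highest values were 1.72 CPM in library 6 and 1.50 CPM in library 3 of HT + Stroke, against 0.175 to 0.618 CPM in the other 4 libraries. Library 3 had a summed muscle marker level of 15.7 CPM, the lowest of its group, so the muscle markers were high in the first of these libraries and not in the second. Cox7b2 had 3 to 11 counts a library in every group. Cyct, the testis form of cytochrome c and not a member by the rule, had 0 counts in all 6 NT + Stroke libraries and at most 6 in any library.

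HT + Sham vs NT + Sham tested angiotensin II without stroke. Of 81 members 0 were called by edgeR, DESeq2 or limma, as 0% of all 16581 genes were by edgeR. At an unadjusted P under 0.05, 3 members passed beside 8.03% of genes: Ndufa12, Cox6b2 and Atp5s. Ndufa12 was at 57.1, 78.8 and 124 CPM in HT + Sham (0.55 ± 0.17, edgeR adjusted P = 0.443). Cox6b2 was at 3.00, 3.81 and 6.37 CPM (0.61 ± 0.21, edgeR adjusted P = 0.469), overlapping NT + Sham. Atp5s was at 14.1, 15.5 and 16.4 CPM (-0.20 ± 0.07, edgeR adjusted P = 0.503), below every NT + Sham library. It was the single member of 81 whose groups did not overlap, beside 0.386% of the genes tested, and it was not called. These are the members called in the stroke comparison, and both comparisons share the NT + Sham libraries. The median of the members was -0.02, and it ran from -0.06 without library 4 of NT + Sham to 0.03 without library 3 of NT + Sham.

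HT + Stroke vs NT + Stroke asked what hypertension added after stroke. edgeR called 0 of 81 members and 0% of all 17008 genes, and DESeq2 and limma also called 0 members. At an unadjusted P under 0.05, 5 members were higher and 0 lower, beside 7.23% of genes. The median was 0.15 with 74 of 81 above 0, against -0.01 over all genes, and it was 0.09 to 0.24 with a library left out (0.09 without library 4 and 0.24 without library 3 of HT + Stroke). With the region scores in the fit it was 0.09. The 7 olfactory bulb markers were all below 0 (median -0.83) and 77 of 81 cytosolic ribosomal protein genes were above 0 (median 0.12), with 0 called in either list, and their part in the members' median was not tested. By complex it was 0.16 for I, 0.02 for II, 0.15 for III, 0.17 for IV and 0.14 for V. The smallest P values were those of Cox6a2 (0.44 ± 0.15, edgeR adjusted P = 0.654, or 0.35 ± 0.15 without library 6 of HT + Stroke), Ndufa11 and Ndufb8. Ndufa11, a membrane-arm subunit of complex I that overlaps Vmac, was at 79.1, 94.4 and 102 CPM in NT + Stroke and 77.3, 117 and 128 CPM in HT + Stroke (0.27 ± 0.11). Ndufb8, also in the membrane arm, was at 80.4, 93.8 and 99.6 CPM and 85.1, 105 and 139 CPM (0.26 ± 0.11). In both genes the HT + Stroke range enclosed or overlapped that of NT + Stroke.

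HT + Stroke vs NT + Sham set both insults against neither. Of 81 members 2 rose and 0 fell, beside 14.7% of 16749 genes called. Of the members 4 were higher and 2 lower at an unadjusted P under 0.05, beside 29.6% of all genes. The median was 0.06, beside 0.01 over all genes, and with the region scores in the fit it was -0.12, beside -0.01. Cox6b2 was at 3.55, 4.59 and 5.78 CPM in HT + Stroke (0.75 ± 0.17, edgeR adjusted P = 0.0142), with 1 library of HT + Stroke, at 3.55 CPM, just inside the NT + Sham range. Ndufa12 was at 35.4, 114 and 138 CPM in HT + Stroke (0.87 ± 0.26, edgeR adjusted P = 0.0431), and library 3 lay below every NT + Sham library. The Ndufa12 call was lost in 10 of 12 fits that left out a library, with an edgeR adjusted P of up to 0.108, and Cox6b2 was lost with the region scores in the fit (0.49, edgeR adjusted P = 0.458), a fit in which 0% of all 16749 genes were called. Uqcrc2 is a core protein of complex III. It was at 119, 126 and 139 CPM in NT + Sham and 81.7, 110 and 119 CPM in HT + Stroke (-0.23 ± 0.08, edgeR adjusted P = 0.0633). Uqcrc2 passed the threshold with DESeq2 (-0.24), with all 4 groups in a single fit (-0.25) and without library 3 of HT + Stroke (-0.26). Sdha did not overlap between these groups, with 269 to 312 CPM in HT + Stroke and 314 to 347 CPM in NT + Sham, but was not called (-0.12 ± 0.06, edgeR adjusted P = 0.176). It was the single member of 81 with that pattern, beside 6.17% of the genes tested.

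**Figure D5:**
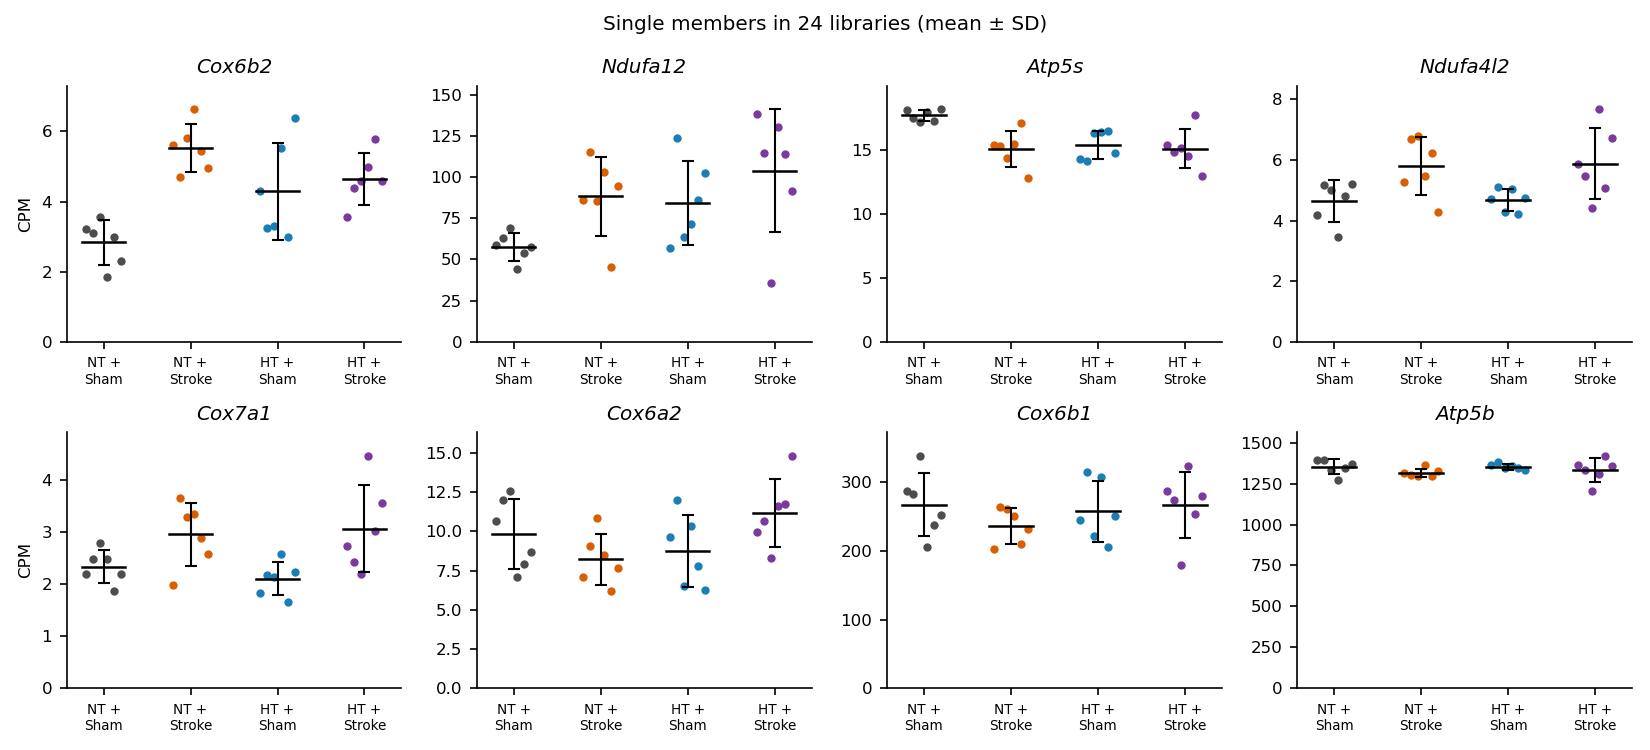
CPM (vertical axes from 0) of 8 members in the 6 libraries of each group (points), with mean and SD (bars). Every NT + Stroke library lies above every NT + Sham library for Cox6b2 (4.70 to 6.63 against 1.84 to 3.57 CPM), while Cox6b1 and Atp5b overlap between all groups.

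The interaction asked whether the stroke difference itself depended on hypertension. edgeR called 0 of 82 members and 0% of 17608 genes, and DESeq2 and limma called 0 members. At an unadjusted P under 0.05, 2 members passed beside 10.4% of genes. The smallest P values were those of Cox6b2 (-0.86 ± 0.25, edgeR adjusted P = 0.319), Cox6a2 (0.60 ± 0.24, edgeR adjusted P = 0.399) and Ndufb9 (0.36 ± 0.18, edgeR adjusted P = 0.488). The Cox6b2 difference between stroke and sham was 0.99 in normotensive and 0.13 ± 0.20 in hypertensive mice, and these were not shown to differ. The Cox6a2 value was 0.51 ± 0.24 without library 6 of HT + Stroke. The median interaction was 0.17 with 77 of 82 above 0, beside a median of 0.00 over all genes with 50.6% above 0. By complex it was 0.18 for I, 0.02 for II, 0.15 for III, 0.22 for IV and 0.14 for V. With library size scaling the median over all members was 0.09, beside -0.07 over all genes. With the region scores in the fit it was 0.07, beside 0.00 over all genes. It was 0.09 to 0.25 with a library left out (lowest without library 4 and highest without library 3 of HT + Stroke). The 7 olfactory bulb markers had interactions of -2.59 to -1.77, each below 0 at an unadjusted P under 0.05, and 72 of 82 cytosolic ribosomal protein genes were above 0 (median 0.11). Their part in the members' median was not tested. For 21 of the 82 members the 95% interval reached past a 1.5-fold difference, so this comparison was the least precise.

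Genes that act with the members were read from fixed lists. Among other oxidative phosphorylation proteins, Ndufab1 (the acyl carrier protein of complex I), Cyc1 (cytochrome c1), Cycs (cytochrome c) and Atpif1 (the ATP synthase inhibitor) were tested, and edgeR called 0 of 4 in NT + Stroke vs NT + Sham, with 2 lower at an unadjusted P under 0.05. The lowest was Atpif1 (-0.22 ± 0.09, edgeR adjusted P = 0.103). Of 50 assembly factors 3 fell and 0 rose (6% called, beside 25.9% of all genes): Ttc19, which acts on complex III (-0.23 ± 0.05, edgeR adjusted P = 0.00142), Tmem70, for complex V (-0.20 ± 0.06, edgeR adjusted P = 0.0144), and Ndufaf1, for complex I (-0.18 ± 0.06, edgeR adjusted P = 0.0450). Their median was -0.07. Of the 13 protein-coding transcripts of the mitochondrial genome 1 fell, mt-Nd1 (-0.19 ± 0.07, edgeR adjusted P = 0.0457), with a median of -0.15 (7.69% called, beside 25.9% of all genes). The summed mitochondrial transcripts were 54019 to 63783 CPM in NT + Sham and 50163 to 58402 CPM in NT + Stroke, which overlap.

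Regulators of mitochondrial biogenesis showed 0 calls among 16 tested in NT + Stroke vs NT + Sham by edgeR, with 0 at an unadjusted P under 0.05 and a median of 0.00. Ppargc1a, a coactivator of respiratory genes, was at 29.7, 32.2 and 35.1 CPM in NT + Sham, 23.996, 30.5 and 35.9 in NT + Stroke, 27.3, 32.7 and 38.3 in HT + Sham, and 20.9, 26.8 and 29.8 in HT + Stroke. It fell in HT + Stroke vs NT + Sham (-0.27 ± 0.08, edgeR adjusted P = 0.0325), and was -0.31 ± 0.10 in HT + Stroke vs HT + Sham (edgeR adjusted P = 0.135). In HT + Stroke vs NT + Sham it was the single regulator called of 16 (6.25%, beside 14.7% of all genes). With the region scores in that fit 0 of 16749 genes were called, so this call was lost. Tfam, which maintains mitochondrial DNA, was not called in any comparison, with log2 fold changes of -0.10 to 0.03. Enzymes that feed the chain were read in the same comparison. Of 16 genes of the citric acid cycle and pyruvate dehydrogenase 1 rose and 4 fell in NT + Stroke vs NT + Sham (31.3% called, beside 25.9% of all genes), and of 18 glycolytic genes 1 rose and 7 fell (44.4%). Their medians were -0.12 and -0.13, beside -0.11 for the members, and the difference in share called was not tested. Suclg2 rose (0.49 ± 0.09, edgeR adjusted P = 0.000733) while Sucla2, which encodes the other form of the same subunit of succinyl-CoA synthetase, fell (-0.22 ± 0.05, edgeR adjusted P = 0.00351). Idh3a fell (-0.20 ± 0.05, edgeR adjusted P = 0.00510). Among glycolytic genes Ldha fell (-0.29 ± 0.06, edgeR adjusted P = 0.000925), Hk1 fell (-0.24 ± 0.06, edgeR adjusted P = 0.00783) and Hk2 rose (0.54 ± 0.15, edgeR adjusted P = 0.0121).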

How the data were processed

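Poly(A) RNA was sequenced in 24 libraries. The counts as deposited are whole reads per gene, not normalized, for which the authors aligned reads to the mouse genome from Ensembl. The submitters' processing notes list featureCounts 1.5.0-p3 and DESeq2 1.20.0. How the authors made the FPKM values as deposited is not given in the sources used here; within a library they scale with count over listed gene length. The aligner is not given in the sources used here. The 4 tables were joined by gene ID. The authors' fold changes and P values, and 56 columns of normalized counts and group means, were not used. Positions are those of the files; 77 of 83 members match the GENCODE annotation of GRCm38 exactly.

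Groups were compared with edgeR 4.0.16 in R 4.3.3: filterByExpr (minimum count 10, total 15), TMM scaling, robust two-sided quasi-likelihood tests, and Benjamini-Hochberg adjustment across every gene in the fit (threshold 0.05). CPM used TMM-scaled library sizes. SE is the log2 fold change over the root of F. The code was tested on simulated counts. Named genes were, per comparison, up to 5 called members in each direction, or the 3 with the smallest P where fewer than 3 passed, besides level extremes of each complex, alternative forms and complex II; Cox7a2, Sdha outside its levels, the printed promoters and spread extremes were chosen after their values were seen. Members and lists were chosen with earlier results of these data known. Alternatives were DESeq2 1.42.0, other scalings and filters, limma 3.58.1 on log2(FPKM + 1) and log2(FPKM + 0.1), all 4 groups in a single fit, region scores as covariates, and leaving out each library. Strand was not stated for the counting, so reads of the 31 members that overlap another gene cannot be told from those of that gene.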

Additional observations from a re-analysis of the deposited data

Results flagged for a closer look

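For 212 sets of 6 libraries (named members and summed lists in each group), the highest or lowest library was set against the rest by Dixon's test at its 95% critical value; chance gives about 1 in 20, and 10 libraries stood apart. Library 3 of HT + Stroke was low for summed complex V (4312 CPM, others 5240 to 5561), Atp5g1 (124 CPM, others 170 to 196) and Cox7a2l (165 CPM, others 194 to 207). Library 4 of HT + Stroke was low for Atp5a1 (739.7 CPM, others 815 to 849). Library 3 of NT + Sham was high for Ndufb2 (34.6 CPM, others 22.0 to 25.8). Among summed marker lists, library 6 of HT + Stroke was high for skeletal muscle (254 CPM, others 15.7 to 22.9) and library 4 of HT + Stroke low for brown fat (3.78 CPM, others 5.24 to 5.62). Library 5 of HT + Sham was high for blood (314 CPM, others 48.6 to 144) and for oligodendrocyte genes (5025 CPM, others 3800 to 4233), and library 6 of HT + Sham for microglial and macrophage genes (405 CPM, others 275 to 320.2).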

How the results depend on the processing

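Of 411 values of a named member under an alternative, 370 kept their direction and side of the threshold, 38 fell short of it, 3 passed it, and 0 changed direction. All 38 were values of Atp5s, Ndufa12 or Cox6b2 in comparisons where that gene had been called. Most of the 411 belong to members not called, which had no call to lose, so the 370 do not measure how stable the calls were. Members called in NT + Stroke vs NT + Sham numbered 3, against 16 at an unadjusted P under 0.05. They numbered 6 with DESeq2, 4 with limma on either FPKM scale and 1 with region scores in the fit. With a library left out they were 2 to 11. The 11 came without library 4 of NT + Sham, when Atp5s and Ndufa12 were not among them. Of all genes, 4365 of 16835 were called in the main fit, 4883 of 32723 with DESeq2 and 4205 of 17049 without that library. In HT + Stroke vs NT + Sham 2 were called, against 6 at an unadjusted P under 0.05. DESeq2 and the fit of all 4 groups each called 3 (2 higher and 1 lower), beside 3243 of 32704 and 3305 of 17608 genes. Calls numbered 1 with all genes that had a count, 1 with limma on either FPKM scale, 0 with region scores, and 1 to 3 with a library left out. At an unadjusted P under 0.05 there were 4 in HT + Stroke vs HT + Sham, 3 in HT + Sham vs NT + Sham, 5 in HT + Stroke vs NT + Stroke and 2 in the interaction, where 0 passed the adjusted threshold under each other setting. The cause of these differences was not tested. The median of HT + Stroke vs NT + Sham was 0.06, and -0.12 with region scores. No paired analysis was possible because the labels give no replicate numbers that link libraries of different groups. Depth limits the least abundant forms, Cox7b2 and Cox8b.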
